A study of Homo sapiens with 6 samples.

Results

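Transcripts of 10 genes of BMP signaling were followed: the ligands BMP2, BMP4, BMP5, BMP6 and BMP7, the secreted modulator BMPER, and the receptors BMPR1A, BMPR1B, ACVR1 and BMPR2. They were taken by their symbols from a table of 58364 rows with values, and each symbol was found. RNA-seq had been done at day 8 of a differentiation toward blood, starting from the established human embryonic stem cell line H1, in 2 libraries of wild-type (WT) cells and 4 libraries of MSX2 KO cells, which are 2 replicates of each of 2 clones edited by CRISPR/Cas9 in exon 2 of MSX2. MSX2 is a homeobox transcription factor, and the comparison asks how its loss alters gene expression in these cells. The columns call the clones 1# and 2#, while the titles number them 7 and 10 with no map between the names, so 1# and 2# are used here. Per the labels, all lines received 50 ng/ml BMP4 with 40 ng/ml activin A for the first 2 days and 40 ng/ml VEGF with 50 ng/ml bFGF for the next 2 days. The labels name the CD31+ sort for the MSX2 KO libraries, and the study's results name CD31+ cells for WT as well. Replicate numbers 1 and 2 are shared by WT, 1# and 2#, and the labels give each number a set letter, F for 1 and S for 2. Nothing in the labels says that replicates were separate cultures, so p-values measure the spread between these libraries. Since each KO line grew from 1 edited clone, what is particular to a clone and what follows the edit can be compared over 2 clones only.

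BMPs are secreted ligands of the TGFβ superfamily that act as dimers. They bind a complex of type I receptors (BMPR1A, BMPR1B, ACVR1) and type II receptors (BMPR2 among them), which phosphorylates SMAD1, SMAD5 and SMAD9, and these enter the nucleus with SMAD4. BMPER, related to the fly protein crossveinless, binds BMPs outside the cell and can dampen or promote signaling in endothelium. BMP4 patterns ventral mesoderm, from which blood and endothelium arise, and BMP2, BMP4 and BMP6 act on endothelial cells.

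Values are FPKM, fragments scaled to transcript length and to the mapped total, and so can be compared between genes per length. The summed FPKM was 555286 to 617120 per library, and 13366 to 14222 genes reached 1 FPKM. Depth relative to WT replicate 1, as estimated from the ratios of very low FPKM values, was 1.0 to 1.183. Read numbers are not in the table, so the absolute depth is unknown. PECAM1, which encodes CD31, stood at 218 to 258 FPKM in WT and 186 to 230 FPKM in MSX2 KO, so the sort marker is present in every library. MSX2 itself read 3.64 and 1.44 FPKM in WT, 18.0 and 5.62 FPKM in clone 1#, and 31.8 and 6.69 FPKM in clone 2#. The targeted gene was thus at a higher level in each KO library than in both WT libraries, with a difference of 1.99 ± 0.69 (SE) on the log2(FPKM + 1) scale and an adjusted p of 0.309 (limma), or 0.0107 with the replicate number as a block. Since the edit lies in exon 2 and FPKM sums the whole transcript, this level does not check the genotype labels.

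The 250 bases before a transcription start were read for 8 of the 10 genes from RefSeq promoters (GRCh38.p14), which held 15 start sites for them. They were searched on both strands for TAATTG (reverse CAATTA), a core bound by MSX homeodomains, and for the palindrome GGCGCC, a GC-rich SMAD site. TAATTG stood in 2 of the 15 windows, at 1 start each of BMPR1A (118 bases before the start) and BMPR1B (167 bases before it), against 6.7% of 35116 promoters of the same length. GGCGCC stood in 5 of the 15 windows, against 16.4% of all promoters. These were 1 window each of ACVR1, BMPR2 and BMP4 and 2 of BMPER. GGCGCC holds only G and C, and the 5 windows were 63.6% to 79.2% GC, where the median of all promoters was 58.0%. Whether promoters of like GC hold it as often was not tested. The windows of the ligands with the highest levels, BMP6 and BMP4, are shown because these genes behaved differently between the libraries. BMP6 has 1 window (chr6:7725849-7726098, plus strand, 64.4% GC), and neither motif was found in it. The outermost of 3 BMP4 windows (chr14:53955051-53955300, minus strand, 63.6% GC) holds GGCGCC, in capitals, 232 bases before the start. Neither window overlaps a GENCODE 29 exon. A match is a description of letters and does not show binding.
BMP6: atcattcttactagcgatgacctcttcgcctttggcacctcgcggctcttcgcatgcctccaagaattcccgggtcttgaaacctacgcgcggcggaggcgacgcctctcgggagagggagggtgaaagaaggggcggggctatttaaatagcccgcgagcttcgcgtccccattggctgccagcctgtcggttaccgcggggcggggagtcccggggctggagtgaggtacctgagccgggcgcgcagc
BMP4: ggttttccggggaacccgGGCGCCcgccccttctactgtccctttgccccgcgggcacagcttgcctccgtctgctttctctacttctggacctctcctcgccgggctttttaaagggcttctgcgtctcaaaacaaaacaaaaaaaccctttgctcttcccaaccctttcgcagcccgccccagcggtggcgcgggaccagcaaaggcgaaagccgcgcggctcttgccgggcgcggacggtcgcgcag

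BMPER had the highest level of the 10 genes in each of the 6 libraries, and BMPR1B the lowest. In WT the order of mean FPKM was BMPER (48.2 ± 30.1, SD, n = 2), BMP4 (15.2 ± 11.6), BMPR2 (13.2 ± 0.396), BMP6 (11.4 ± 2.32), ACVR1 (7.18 ± 0.865), BMPR1A (6.87 ± 0.159), BMP2 (0.986 ± 0.908), BMP7 (0.665 ± 0.639), BMP5 (0.324 ± 0.205) and BMPR1B (0.0342 ± 0.0484). Neighbours in that order from BMP4 to BMP6, ACVR1 with BMPR1A, and BMP2 to BMP5 had overlapping WT values. In MSX2 KO, BMP6 (35.7 ± 3.77, SD, n = 4) stood second after BMPER (113 ± 67.5), ahead of BMP4 (23.1 ± 13.1) and BMPR2 (14.4 ± 0.974), although its values overlapped those of BMP4. BMP5 and BMPR1B stayed below the filter of a mean of 0.5 FPKM and were left out of the tests made with it, which left 8 of the 10 genes.

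Of the 8 genes tested, 1 passed an adjusted p of 0.05 as higher in MSX2 KO (limma on log2(FPKM + 1), Benjamini-Hochberg over 15895 genes), where 0.963% of all genes tested were called higher and 0.321% lower. This was BMP6. None of the 8 was called lower, and none had a difference below 0 at any p. With the replicate number as a block, 4 of the 8 passed as higher, BMP2, BMP4, BMP6 and BMPER, and 0 as lower, against 6.11% of all genes higher and 3.74% lower. None passed with the block when all 58364 rows were kept, and 3 did (BMP4, BMP6 and BMPER) over rows above 0 in any library. All 4 KO libraries were above both WT libraries for 4 of the 8, BMP6, BMP7, BMPR1A and BMPR2, as for 12.1% of all genes. Each KO library was above the WT library of its number for 7 of the 8, all but ACVR1, as for 23.6% of all genes. The median log2 difference of the 8 was 0.68, and that of all genes tested was 0.01.

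Among the ligands, BMP6, which acts in iron homeostasis through hepcidin and is also made by endothelial cells, was the ligand that passed without the block. It read 13.1 and 9.78 FPKM in WT replicates 1 and 2, 33.0 and 36.0 FPKM in clone 1#, and 32.8 and 40.9 FPKM in clone 2#. The KO libraries lie well above both WT libraries, and the groups do not overlap. The mean was 3.13-fold that of WT, and the log2 difference was 1.57 ± 0.16 (SE), with a 95% interval of 1.18 to 1.96 and an adjusted p of 0.0152 (limma, 4 against 2 libraries). With the replicate block the adjusted p was 0.00299. The exact permutation test over the 6 libraries gave a two-sided p of 0.067, the smallest that 4 against 2 libraries allow. The call for BMP6 was lost on leaving out 4 of the 6 libraries in turn. Without WT replicate 2 the adjusted p was 0.0651, and without 1# replicate 1, 1# replicate 2 or 2# replicate 2 it was 0.063, 0.0708 and 0.0569, and the log2 difference was 1.38 to 1.76 over all 6 omissions. It also missed the threshold when WT, 1# and 2# were fitted as 3 groups (0.0717) and without the filter on low values (0.0774).

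BMP4, the ligand supplied to the cultures at their start and a gene that mesoderm and endothelium transcribe, differed more between the replicate numbers than between the genotypes. Its values were 23.4 and 7.01 FPKM in WT, 36.0 and 11.9 FPKM in 1#, and 32.9 and 11.8 FPKM in 2#. All replicate 1 libraries were above all replicate 2 libraries, and within each number both clones were above WT, by 1.53-fold (1#) and 1.4-fold (2#) in replicate 1 and by 1.7-fold and 1.68-fold in replicate 2. Over all libraries the groups overlap. The log2 difference was 0.61 ± 0.63 (SE) with an adjusted p of 0.836 without the block, and 0.61 ± 0.09 with an adjusted p of 0.0107 with it (limma). Without WT replicate 2, and with no block, the difference turned to -0.2.

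BMP2, a close relative of BMP4, had the replicate numbers and the genotypes in the same order, at a far lower level. It read 1.63 and 0.344 FPKM in WT, 3.06 and 1.43 FPKM in 1#, and 3.76 and 1.16 FPKM in 2#. Replicate 2 of each clone was below WT replicate 1, so the groups overlap, and within each number both clones were above WT. The log2 difference was 0.76 ± 0.42 (SE, adjusted p = 0.591), and with the block 0.76 ± 0.15 (adjusted p = 0.0283, limma). Without the block it came to 1.24 on dropping WT replicate 1 and to 0.27 on dropping WT replicate 2, the extremes over the omissions.

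BMP7, a ligand best known in kidney and eye, was at 0.213 and 1.12 FPKM in WT, 1.64 and 1.87 FPKM in 1#, and 3.03 and 1.34 FPKM in 2#. The groups do not overlap, although replicate 2 of clone 2# and WT replicate 2 were only 1.2-fold apart. Its log2 difference of 0.86 ± 0.31 (SE) did not pass, with an adjusted p of 0.342, or 0.146 with the block (limma), and changed to 0.46 on dropping WT replicate 1 and to 1.26 on dropping WT replicate 2. With a pseudocount of 0.1 it was 1.68, beside 1.64 for BMP6, and did not pass either (adjusted p = 0.325). BMP5 was lower than 0.5 FPKM in every library, with 0.469 and 0.18 FPKM in WT, 0.309 and 0.09 FPKM in 1#, and 0.371 and 0.199 FPKM in 2#. These overlap between the groups. Over rows above 0 in any library its log2 difference was -0.09 (adjusted p = 0.866, or 0.544 with the block, limma), at a level too low to be read. An antisense gene, BMP7-AS1, overlaps BMP7, and it was listed at 0 FPKM in all libraries.

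Taking the 5 ligands as a sum, WT held 38.8 and 18.4 FPKM in replicates 1 and 2, clone 1# held 74.0 and 51.3 FPKM, and clone 2# held 72.9 and 55.4 FPKM. Each KO library was above both WT libraries. The makeup of the sum differed between the replicate numbers as well. BMP4 gave 60.4%, 48.6% and 45.2% of it in replicate 1 of WT, 1# and 2#, and 38.0%, 23.2% and 21.2% in replicate 2. BMP6 gave 33.6%, 44.6% and 45.0% in replicate 1 and 53.1%, 70.2% and 73.9% in replicate 2. In both numbers the share of BMP6 was lowest in WT, and that of BMP4 was highest there.

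BMPER, the extracellular BMP binder of endothelium, ran against BMP2 and BMP4 between the replicate numbers and with them between the genotypes. It read 26.9 and 69.5 FPKM in WT, 50.1 and 170 FPKM in 1#, and 60.2 and 173 FPKM in 2#. Replicate 1 of both clones was below WT replicate 2, so the groups overlap, while within each number the clones were 1.86-fold and 2.23-fold (replicate 1) and 2.45-fold and 2.49-fold (replicate 2) above WT. The log2 difference was 1.15 ± 0.64 (SE) with an adjusted p of 0.589, and 1.15 ± 0.1 with an adjusted p of 0.0029 with the block (limma). Without the block, dropping WT replicate 1 gave 0.48 and dropping WT replicate 2 gave 1.81, the extremes over the 6 omissions. The ratio of BMPER to BMP4 in FPKM was 1.15, 1.39 and 1.83 in replicate 1 of WT, 1# and 2#, and 9.92, 14.3 and 14.7 in replicate 2. The ratio thus differed more between the replicate numbers than between WT and KO, and within each number it was lowest in WT.

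The receptors moved less. BMPR1A, a broadly expressed type I receptor, read 6.76 and 6.99 FPKM in WT, 8.57 and 9.54 FPKM in 1#, and 9.74 and 8.59 FPKM in 2#. All KO values are above both WT values. The log2 difference of 0.36 ± 0.14 (SE) did not pass, with an adjusted p of 0.379, or 0.0868 with the block (limma), and its blocked 95% interval ran from 0.1 to 0.61. BMPR1B, the type I receptor of cartilage and ovary, was under 0.1 FPKM throughout, with 0.0684 FPKM and a listed 0 in WT and 0.0335 to 0.0859 FPKM in the KO libraries, so its difference could not be assessed. ACVR1, the type I receptor used mainly by BMP6 and BMP7, read 6.57 and 7.8 FPKM in WT, 6.73 and 8.26 FPKM in 1#, and 5.63 and 9.25 FPKM in 2#. These overlap, and the log2 difference was 0.03 with a 95% interval of -0.48 to 0.55 (adjusted p = 0.985, limma).

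BMPR2, the type II receptor mutated in heritable pulmonary arterial hypertension, read 13.5 and 12.9 FPKM in WT, 14.0 and 14.2 FPKM in 1#, and 13.7 and 15.8 FPKM in 2#. The KO values are just above the WT values, by 0.12 on the log2 scale with a 95% interval of -0.19 to 0.43, or -0.11 to 0.35 with the block, and adjusted p of 0.855 and 0.478 (limma). The summed FPKM of the 4 receptors was 26.9 and 27.7 in WT and 29.1 to 33.8 in MSX2 KO. Pseudogenes overlap BMPR1A and BMPR2. Of these, AC073410.1 on the strand of BMPR2 reached 0.437 FPKM and the others were listed at 0, as was the BMP6 copy BMP6P1. The BMPR1A copies BMPR1AP1 and BMPR1AP2 had no FPKM listed, so their levels are unknown. How reads were divided between such copies is not given in the sources used here.

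The replicate numbers were compared over the 3 libraries of each, with genotype as a term. BMPER passed as higher in replicate 2 (log2 difference 1.53 ± 0.1, SE, adjusted p = 0.000874, limma), where 15.6% of all genes did. BMP2 (-0.95 ± 0.14, adjusted p = 0.00484) and BMP4 (-1.51 ± 0.08, adjusted p = 0.000683) passed as lower, where 18.9% of all genes did. BMP6 (0.02 ± 0.14) and the receptors BMPR1A (0.01 ± 0.1) and BMPR2 (0.05 ± 0.09) were close to 0, and ACVR1 missed the threshold (0.37 ± 0.12, adjusted p = 0.0514). Hence 3 of the 4 genes called with the block also differed between the replicate numbers, and BMP6, called with and without it, did not pass there. The same division shows in each line alone, since replicate 1 was 3.34-fold, 3.02-fold and 2.8-fold above replicate 2 for BMP4 in WT, 1# and 2#, and replicate 2 was 2.58-fold, 3.4-fold and 2.88-fold above replicate 1 for BMPER.

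**Figure D1:**
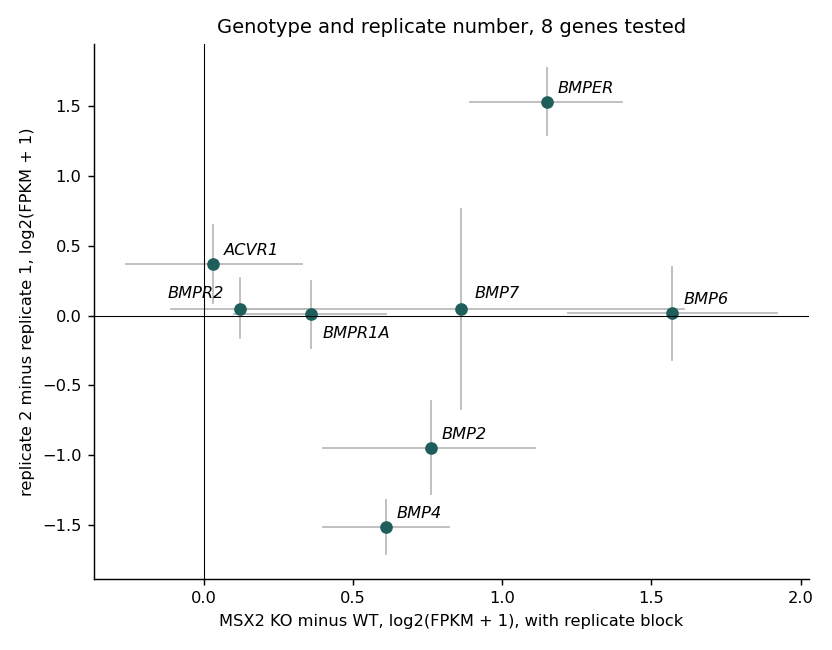
For the 8 genes tested, the difference between MSX2 KO and WT with the replicate block (x axis) and that between replicate 2 and replicate 1 (y axis), both on the log2(FPKM + 1) scale with 95% intervals. BMP6 lies far to the right near 0 on the y axis, BMPER lies at the top, BMP2 and BMP4 lie at the bottom, and ACVR1, BMPR1A and BMPR2 lie near the origin.

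Whether the difference from WT depended on the replicate number was tested by an interaction. None of the 8 genes passed, as 0.0189% of all genes did, and 1 had an unadjusted p under 0.05, as 11.4% of all genes did. The 1 gene was BMP6, whose KO to WT ratio was 2.53 (1#) and 2.52 (2#) in replicate 1 and 3.68 and 4.18 in replicate 2, with an interaction of 0.6 ± 0.16 (SE) on the log2 scale and an adjusted p of 0.37 (limma). BMP7 went the other way in value, with ratios of 7.69 and 14.2 in replicate 1 and 1.67 and 1.2 in replicate 2 (interaction -1.14 ± 0.46, adjusted p = 0.457, limma). Its replicate 1 ratios divide by a WT value of only 0.213 FPKM, too low for their size to be read. Both interactions rest on 1 WT library per number.

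The clones were also compared with WT one by one. In a fit of WT, 1# and 2# as 3 groups that share the spread, without the block, 0 of the 8 genes passed in clone 1# and 0 in clone 2# (limma), as against 0.00629% of all genes in clone 1# and 0.00629% in clone 2#, and BMP6 was the 1 member with an unadjusted p under 0.05 in either, as were 7.37% of all genes in 1# and 7.43% in 2# (1.53 ± 0.22, SE, adjusted p = 0.146 in 1#, and 1.61 ± 0.22, adjusted p = 0.131 in 2#). With the block in the same fit, BMP6 and BMPER passed as higher in each clone, where 2.29% of all genes did in 1# and 2.59% in 2#. The blocked adjusted p was 0.0217 and 0.0172 for BMP6 and 0.0174 and 0.0129 for BMPER, in 1# and 2#. BMP4 (0.0512 and 0.0644) and BMP2 (0.114 and 0.103) missed the threshold in each clone. Between 2# and 1#, 0 of the 8 passed with or without the block, as did 0% of all genes, and 0 had an unadjusted p under 0.05, which 1.42% of all genes had without the block and 3.33% with it. Their blocked 95% intervals ran from -0.37 to 0.54 for BMP6 and from -0.16 to 0.44 for BMPER. Both clones are compared with the same 2 WT libraries.

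In a list of 67 other BMP pathway genes, 66 were in the table and 47 were tested. Of these 4 passed as higher and 0 as lower, beside 0.963% and 0.321% of all genes, and with the block 12 passed as higher and 0 as lower, beside 6.11% and 3.74%. Their median log2 difference was 0.2. The 8 genes that passed with the block alone, at a pseudocount of 1 and without rescaling, were BMP10, GDF3, ENG, NOG, SMAD6, SMAD7, SMURF2 and TOB1. With the block, none of them passed when all rows were kept or over rows above 0 in any library. The lowest adjusted p of the 8 was 0.168 and 0.0613 (ENG, limma). Of the 4 called without the block, TBX20 (0.0397) passed with it when all rows were kept. BAMBI (0.129), HEY2 (0.087) and ID2 (0.0645) did not (limma). All 4 passed with the block over rows above 0 in any library. Without the block, HEY2 (0.0326) passed over those rows, and BAMBI (0.0751), ID2 (0.105) and TBX20 (0.0865) did not (limma). Among 4 tested of 11 other ligands, BMP10, a ligand of the endothelial receptor ACVRL1 made in the heart, read 0.692 and 0.871 FPKM in WT and 2.28 to 3.57 FPKM in KO, and rose with the block (1.08, adjusted p = 0.0193, against 0.0684 without it). GDF3, a ligand of early embryos, also passed with the block (0.69, adjusted p = 0.0353). GDF7, which is at 5.59 and 1.42 FPKM in WT and 0.922 to 4.09 FPKM in KO, did not pass (adjusted p = 0.138 with the block).

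Among 7 tested of 9 other receptors and co-receptors, 2 had a log2 difference above 0 and 5 below 0, with a median of -0.11. The number that passed as lower was 0, with or without the block. The endothelial ones, which are the 2 above 0, had the highest levels. ACVRL1, the type I receptor of BMP9 and BMP10, read 99.7 and 79.0 FPKM in WT and 92.6 to 124 FPKM in KO, which is several times the level of BMPR1A and ACVR1 per length. It did not pass (log2 difference 0.23, adjusted p = 0.685). ENG, the co-receptor endoglin, read 90.9 and 91.0 FPKM in WT, 159 and 147 FPKM in 1#, and 129 and 160 FPKM in 2#, with no overlap, and a log2 difference of 0.7 ± 0.12 (SE). It missed the threshold at an adjusted p of 0.0524 and passed with the block at 0.00977 (limma).

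Of 13 tested secreted antagonists and modulators in a list of 21, 0 passed without the block and NOG passed with it, a share near the 6.11% of all genes called higher with the block. NOG, which encodes the BMP trap noggin, read 1.68 and 0.217 FPKM in WT, 2.87 and 1.34 FPKM in 1#, and 3.4 and 0.952 FPKM in 2#, and so shares with BMP2 and BMP4 the higher level in replicate 1 (log2 difference between the genotypes 0.72, blocked adjusted p = 0.0411). FSTL1, a BMP4-binding glycoprotein, had the highest level of the list at 203 to 221 FPKM in WT and 161 to 215 FPKM in KO. SOST, the sclerostin gene, was at 75.0 and 43.7 FPKM in WT and 31.5 to 56.8 FPKM in KO, and neither passed.

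All 14 genes of the SMAD carriers and brakes were tested, and 1 passed without and 5 with the block, where 0.963% and 6.11% of all genes were called higher. BAMBI, a decoy receptor that lacks the kinase, read 32.5 and 48.6 FPKM in WT and 91.6 to 116 FPKM in KO, a log2 difference of 1.38 ± 0.18 (SE, adjusted p = 0.0292, limma). The inhibitory SMAD6 (302 and 184 FPKM in WT, 339 to 397 FPKM in KO, adjusted p = 0.0357) and SMAD7 (0.0238), the ubiquitin ligase SMURF2 (0.0442) and the SMAD-binding TOB1 (0.0375) passed with the block alone. Most genes of this list restrain signaling, and so do those that passed. SKI, a corepressor with the highest level here, was at 288 and 387 FPKM in WT and 304 to 486 FPKM in KO and did not pass. SMAD1, the first of the carriers, was at 13.7 and 14.6 FPKM in WT and 12.5 to 14.9 FPKM in KO.

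Of 12 tested BMP target genes in a list of 15, which shares SMAD6, SMAD7 and BAMBI with the list above, 4 passed without and 6 with the block, beside the same 0.963% and 6.11% of all genes. ID2, an inhibitor of bHLH factors, read 52.2 and 63.8 FPKM in WT and 116 to 178 FPKM in KO (1.26 ± 0.19, SE, adjusted p = 0.0404, limma). HEY2, an arterial bHLH repressor also driven by Notch, read 30.6 and 27.5 FPKM in WT and 54.7 to 66.0 FPKM in KO (1.07 ± 0.12, adjusted p = 0.018). TBX20, a T-box factor of heart and endocardium, read 1.2 and 2.42 FPKM in WT and 7.33 to 11.1 FPKM in KO (1.82 ± 0.26, adjusted p = 0.0323). ID1, the target gene with the highest level, did not follow, with 428 and 229 FPKM in WT, 427 and 241 FPKM in 1#, and 412 and 279 FPKM in 2#, and a log2 difference of 0.07 (adjusted p = 0.976, or 0.629 with the block). Of the 12 targets tested, 10 had a difference above 0 and 2 below 0. The 2 were ID3 (-0.27, adjusted p = 0.783, or 0.101 with the block) and HEY1 (-0.06, adjusted p = 0.978, or 0.73 with the block, limma). Between the replicate numbers ID1 fell by 0.76 on the log2 scale (adjusted p = 0.00193, limma), as BMP2 and BMP4 did. The calls made without the block did not outlast most omissions of a library. The adjusted p (limma) was 0.0628 to 0.275 for ID2 and 0.0651 to 0.19 for TBX20 over the 6 omissions, and the threshold was passed in 1 of 6 for BAMBI (0.0382, without WT replicate 2, and 0.125 at most) and for HEY2 (0.0396, without 2# replicate 1, and 0.102 at most).

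Markers of several cell types moved with the genotype in the same libraries, and in bulk RNA fewer cells of a type and less RNA per cell cannot be told apart. Over all genes 0.963% were called higher and 0.321% lower, and 6.11% and 3.74% with the block. Of 12 endothelial markers tested, 3 passed as lower without the block, and 7 as lower and 1 as higher with it, with a summed level of 3340 to 3350 FPKM in WT and 2440 to 2830 FPKM in KO. Of 12 hematopoietic markers tested, 3 passed as higher without and 9 with the block, and the sum was 166 to 217 FPKM in WT and 388 to 476 FPKM in KO (SPN, which encodes CD43, 6.19 to 11.3 and 14.4 to 17.4 FPKM). Mesenchymal markers (2 of 10 higher, 4 with the block) summed to 295 to 346 and 509 to 597 FPKM, and COL1A1 to 27.7 to 55.9 and 193 to 206 FPKM. Cardiac markers (1 of 6 tested higher, 3 with the block) summed to 39.3 to 46.3 and 93.6 to 137 FPKM, with NKX2-5 at 30.9 to 41.4 and 49.6 to 84.3 FPKM. Endoderm and liver markers (0 of 8, 1 with the block) summed to 206 to 313 and 331 to 549 FPKM, with SOX17 at 165 to 241 and 201 to 353 FPKM. Epithelial and neural markers (0 of 6 tested, 4 with the block) summed to 261 to 444 and 355 to 550 FPKM, with EPCAM at 1.13 to 2.38 and 2.38 to 16.0 FPKM. Pluripotency markers (0 of 6 tested, 1 with the block) summed to 94.4 to 112 and 114 to 135 FPKM, with POU5F1 at 0.869 to 4.36 and 0.911 to 5.33 FPKM. Of these 3 sums the epithelial and neural one overlapped between the groups, and so did SOX17 and POU5F1. SOX17, which is in both lists, is the 1 endothelial marker called higher and the 1 endoderm marker called with the block, so no other endoderm or liver marker passed. No marker named first in these lists was at 0 in any library. The part of these cell types in the levels of BMP6 and the other genes was not tested.

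The genes most like BMP6 over the 6 libraries, among 9545 of at least 5 FPKM on average, were EIF2S2 (Pearson r 0.9963 on log2(FPKM + 1)), a translation initiation factor subunit, HDGF (0.9959), a secreted growth factor, and QPCT (0.9949), a glutaminyl cyclase. EIF2S2 read 40.6 and 38.2 FPKM in WT and 56.7 to 60.7 FPKM in KO, so the pattern is shared at a smaller size of change. Those most like BMP4 were DGKA (0.9988), a diacylglycerol kinase, PXDC1 (0.9969) and FAM210B (0.9964). DGKA read 23.7 and 10.5 FPKM in WT, 33.0 and 15.5 FPKM in 1#, and 31.2 and 15.7 FPKM in 2#, with both the replicate numbers and the genotypes in the order of BMP4. These coefficients are descriptions over 6 libraries, where those of the same replicate number share a set letter, and they were picked from all genes compared.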

How the data were processed

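RNA-seq was measured in 6 libraries of H1-derived day 8 cells. The authors deposited FPKM values, with 1 row per gene and 1 column per library and replicates not pooled. The submitters' processing notes name BWA, Bowtie, RSEM and hg19, other label text names TopHat and Cufflinks, and versions, annotation and strand use are not given in the sources used here. The growth protocol in the labels also speaks of HAND1 overexpression, so parts of it may not describe these libraries. Read counts are not in the table, so no detection floor is given, and limits from depth cannot be stated.

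From these, log2(FPKM + 1) was computed, genes of mean under 0.5 FPKM were left out (15895 kept), and limma 3.58.1 in R 4.3.3 was fitted with a mean-variance trend, two-sided, with Benjamini-Hochberg adjustment and a threshold of 0.05. Fold changes on this scale understate those of low genes. MSX2 KO (4 libraries) was compared with WT (2), without and with a replicate block. The numbers were taken to pair the libraries, since the labels give each number a set letter and the replicate 2 minus 1 differences correlated at 0.508 (WT with 1#), 0.54 (WT with 2#) and 0.636 (1# with 2#) over genes. Each clone, the replicate numbers and their interaction with genotype were fitted likewise, and single genes also by an exact permutation test. The fits were tested on simulated data. The alternatives were a pseudocount of 0.1, no filter, 3 groups, rescaled libraries, no trend, each clone alone and leaving out each library, and blocked versions added after seeing the data.

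The members and gene lists were chosen with earlier results of these data known, so no list supports a direction independently. Named genes are the members, MSX2, the genes of the other BMP lists that passed with or without the block and the 2 of highest mean in each, and the 3 most correlated with BMP4 and BMP6. Of marker lists, the sum and the first marker are given. SMAD1, ID3, HEY1 and the cardiac marker HAND1 were named after their values were seen. Where a symbol had several rows, the row of the highest mean was used.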

Additional observations from a re-analysis of the deposited data

How the results depend on the processing

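The number of the 10 genes called in MSX2 KO against WT was 1. It was 4 with the replicate block, 4 with the block and a pseudocount of 0.1 or rescaled libraries, 3 with the block over every gene above 0 in any library, and 2 with the block in either clone alone. It was 0 without the filter on low values (with or without the block), with 3 groups and in either clone alone without the block, and 0 to 1 on leaving out a library. Over all genes the 204 calls became 1566 with the replicate block, 98 without the filter, 6 with 3 groups, 0 and 1 when clone 1# or clone 2# was fitted alone with WT, and 19 to 82 on leaving out a library. Of the other BMP pathway genes, 4 calls became 12 with the replicate block, 0 without the filter, with 3 groups or in either clone alone, and 0 to 1 on leaving out a library. They became 6 with a pseudocount of 0.1, 5 with rescaled libraries and 3 without the trend. Without the block, ENG and BMP10 passed at that pseudocount (both 0.0489), and ENG passed with rescaled libraries (0.0466, limma). Calls of the clones against WT went from 0 to 4 with the replicate block. Smaller fits have fewer libraries, and beyond that the cause was not tested. The omissions of a library were fitted without the block. Without WT replicate 2, BMP4 turned to -0.2 on the log2 scale, and it reached 1.41 without WT replicate 1. These 2 fits set WT of 1 replicate number against KO of both, and BMP4 differed by -1.51 between the numbers. Within each number its KO to WT ratios were 1.4 to 1.7. ACVR1 turned to -0.07 without WT replicate 1, -0.02 without 1# replicate 2 and -0.07 without 2# replicate 2, and reached 0.14 without WT replicate 2, around a difference of 0.03 that did not pass. BMP6 kept its direction under each alternative run, with 1.38 to 1.76 and adjusted p of 0.0409 to 0.0708 (limma) on leaving out a library. Rescaling reversed no difference of the genes named. BMP5 and BMPR1B were too low to be read, and the absolute depth is unknown.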
